A study of Canis lupus familiaris with 10 samples.

Results

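Retinal RNA levels of 10 genes of the ATF4 and unfolded protein response were compared between dogs with glaucoma and healthy dogs. The genes were the transcription factors ATF4, DDIT3 and XBP1, the pseudokinase TRIB3, the stress response genes SESN2 and CHAC1, the amino acid synthesis genes ASNS, PSAT1 and PHGDH, and HERPUD1 of the endoplasmic reticulum (ER) membrane. Every probe set whose annotation gave exactly 1 gene symbol, and that symbol was one of these, was taken, which gave 21 of the 42924 probe sets on the array that were not controls. The glaucoma group held 5 dogs with primary glaucoma: 2 Shiba Inus of 5 and 14 years (glaucoma 1 and 2), 2 Basset Hounds of 5 and 7 years (glaucoma 3 and 4) and 1 Dalmatian of 9 years (glaucoma 5). The healthy group held 5 Beagles of 4 years labelled as healthy, which according to the methods had been euthanized for other reasons. According to the methods, the glaucoma was of the closed-angle form with raised intraocular pressure, and all affected dogs had received topical latanoprost and brinzolamide. Neural retina of 1 eye per dog was hybridised to 1 Affymetrix Canine genome 2.0 array, with no pooling. No breed occurred in both groups and every affected dog was older than every healthy dog, so breed, age, medication and disease cannot be told apart here.

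ATF4 is the transcription factor at the end of the integrated stress response. When PERK, GCN2 or a related kinase phosphorylates the translation factor eIF2alpha, protein synthesis slows while ATF4 protein is made more efficiently, and ATF4 then switches on genes for amino acid synthesis and transport and, with prolonged stress, DDIT3 (also called CHOP) and TRIB3. PERK is also 1 of the 3 ER sensors of the unfolded protein response, and the other two, IRE1 and ATF6, act through spliced XBP1 and through ER chaperone and degradation genes. Arrays measure transcripts, so neither the translation of ATF4, nor the phosphorylation of eIF2alpha, nor the splicing of XBP1 was measured.

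The level of a probe set is given as the log2 of its RMA intensity, and a difference is the mean log2 level in glaucoma minus that in healthy retinas. Levels can be compared between samples but not between probe sets. A probe set was tested when its log2 level exceeded 7 in at least 2 samples, and 18416 were. It was said to be higher or lower at an adjusted p under 0.05 from limma, a linear model with moderated variances, with Benjamini-Hochberg adjustment over all 18416. Median intensity was 77.2 to 80.9 per array. Correlations across probe sets were 0.849 to 0.967 among glaucoma samples and 0.953 to 0.982 among healthy samples. In bulk retina, fewer cells of a type and less RNA per cell cannot be told apart, and some samples stood apart in cell markers. Over the 11 tested markers of the retinal pigment epithelium (RPE), the mean log2 level exceeded the healthy mean by 3.12 in glaucoma 1 and by 2.21 in healthy 4, and it lay between -0.74 and 0.98 in the other samples. The 9 tested rod markers lay 3.44 below the healthy mean in glaucoma 1 and between -0.63 and 0.21 in the others. Glaucoma 5 was the lowest of all samples in markers of ganglion (-2.61), amacrine and horizontal (-3.93), bipolar (-4.23) and cone cells (-2.74). The other glaucoma samples lay at -1.91 to -0.9, -3.07 to -1.16, -2.87 to -1.43 and -2.72 to -0.11. In microglia and macrophage markers glaucoma 1 (2.64) and glaucoma 5 (2.48) were the highest.

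Of the 10 genes 9 could be tested, all but SESN2, and none of these was called higher or lower in the glaucomatous retina. Of the 21 probe sets of the 10 genes, 18 were tested. Limma called 0 of the 18 in either direction, while 17.0% of all tested probe sets were called (7.58% higher and 9.40% lower). At an unadjusted p under 0.05 there were 4 (3 higher and 1 lower), beside 32.6% of all tested probe sets. The exact Wilcoxon rank sum test gave 2 at an unadjusted p under 0.05, against 26.3% of all, and 0 after adjustment, where its smallest adjusted p over all 18416 was 0.0534. The groups overlapped in each of the 18, whereas 14.9% of all tested probe sets had groups that did not overlap. The differences ran from -0.37 for ATF4 to 0.43 for PHGDH, and all 18 intervals at 95% lay within a 2-fold change, with bounds at 0.643-fold and 1.9-fold. Of the 18 differences 15 were above 0 and 3 below it, with 47.4% of all tested probe sets above 0. The median difference was 0.22, compared to -0.02 over all tested probe sets, while the median size of the difference was 0.23 in both. By gene, with the brightest tested probe set of each, 6 differences were above 0 and 3 below it, with 49.1% of all 7900 genes above 0. A difference at least as large as that of PHGDH in either direction was found in 27.6% of all tested probe sets.

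**Figure D1:**
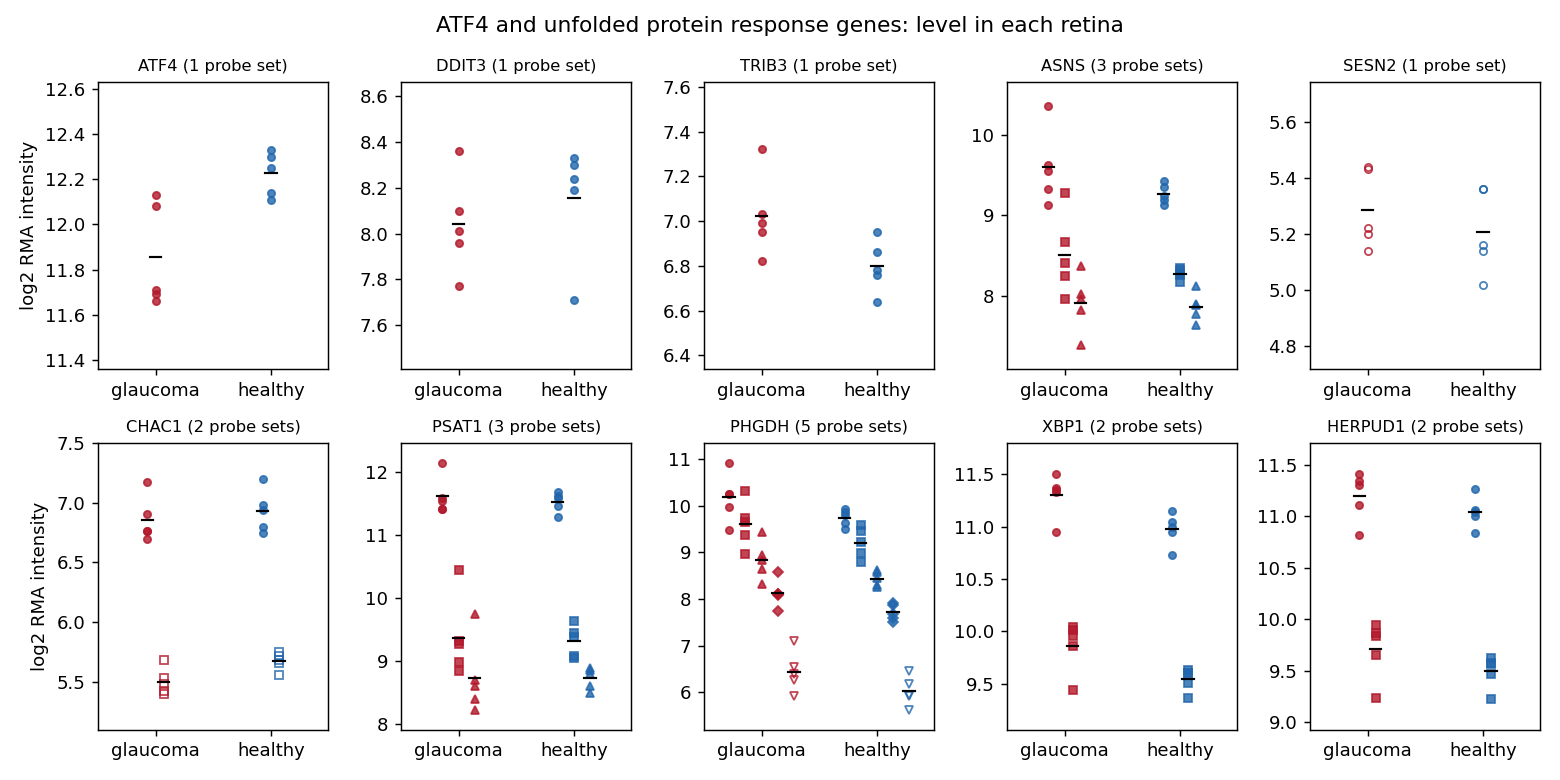
Log2 RMA intensity of each probe set of the 10 genes in the 5 glaucoma samples (left, red) and the 5 healthy samples (right, blue), with a different marker for each probe set, open markers for those too dim to be tested and a black line at each group mean. In every panel the points of the groups overlap, ATF4 lies lowest in 3 glaucoma samples at 11.66 to 11.71, and the highest points of ASNS, PSAT1 and PHGDH each belong to 1 glaucoma sample.

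ATF4 had the smallest adjusted p of the 18. Its log2 level was 11.66, 12.08, 12.13, 11.71 and 11.69 in glaucoma 1 to 5, against 12.11, 12.25, 12.30, 12.14 and 12.33 in healthy 1 to 5. All 5 glaucoma samples lay below the healthy mean, and the groups overlapped through 1 pair only, the younger Basset Hound (glaucoma 3) lying just above healthy 1. The means were 11.86 ± 0.23 in glaucoma and 12.23 ± 0.10 in healthy retinas (SD, n = 5 each), a difference of -0.37 (SE 0.12, 95% interval -0.64 to -0.10, 0.774-fold), which missed the threshold (limma, adjusted p = 0.0596). ATF4 passed it without glaucoma 2 (-0.43, adjusted p = 0.039) or without glaucoma 3 (-0.44, adjusted p = 0.0274), and over all alternatives its difference stayed between -0.45 and -0.32, with adjusted p of 0.018 to 0.266. The single ATF4 probe set had no second one to set it against. Glaucoma 1, 4 and 5, the lowest in ATF4, were also lowest in the 5 tested amacrine and horizontal cell markers. The mean log2 level of these markers differed from the healthy mean by -2.81, -3.07 and -3.93, against -1.16 and -1.4 in glaucoma 2 and 3. The 8 tested cone markers split alike (-2.72, -1.58 and -2.74 against -0.56 and -0.11), but rod markers did not (0.21 in glaucoma 4). The part of these cells in the ATF4 level was not tested.

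DDIT3, the pro-apoptotic transcription factor CHOP induced by ATF4, showed no separation. Its levels were 8.01, 8.10, 8.36, 7.96 and 7.77 in glaucoma 1 to 5, and 8.24, 8.33, 8.19, 8.30 and 7.71 in healthy 1 to 5. The lowest sample was healthy 5 and the highest glaucoma 3, and the difference was -0.11 (SE 0.15, 95% interval -0.44 to 0.21, limma adjusted p = 0.637). TRIB3, a pseudokinase induced by ATF4 and CHOP that dampens their activity, was near the detection limit, at 6.95, 6.99, 6.82, 7.03 and 7.32 in glaucoma 1 to 5, and at 6.78, 6.86, 6.95, 6.64 and 6.76 in healthy 1 to 5. Only glaucoma 4 and the Dalmatian (glaucoma 5) exceeded the minimum of 7, so TRIB3 entered the test through the glaucoma group alone. Its difference was 0.22 (SE 0.11, 95% interval -0.02 to 0.47, limma adjusted p = 0.193).

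SESN2 and CHAC1 are stress outputs of ATF4, the one a leucine-binding inhibitor of mTORC1 signalling and the other an enzyme that breaks down glutathione. SESN2 lay at 5.14 to 5.44 in glaucoma and 5.02 to 5.36 in healthy retinas, above the minimum in 0 of 10 samples, and was not tested (difference 0.08). The tested CHAC1 probe set read 6.76, 6.91, 6.70, 6.76 and 7.17 in glaucoma 1 to 5, and 6.98, 6.94, 7.20, 6.80 and 6.75 in healthy 1 to 5. It passed the minimum through 1 sample of each group, the Dalmatian and healthy 3, and differed by -0.07 (SE 0.12, limma adjusted p = 0.724). The second CHAC1 probe set was too dim to be tested, with a difference of -0.17. A change of SESN2 or CHAC1 may not have been detectable at these intensities.

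ASNS makes asparagine from aspartate and glutamine and is a classical ATF4 target. The brightest of its 3 probe sets read 9.33, 9.13, 9.62, 9.55 and 10.35 in glaucoma 1 to 5, and 9.43, 9.35, 9.24, 9.13 and 9.19 in healthy 1 to 5. The Dalmatian was the highest of all 10 samples in each of the 3 ASNS probe sets, and the older Shiba Inu (glaucoma 2) read as low as or lower than the lowest healthy sample in each. The difference of the brightest was 0.32 (SE 0.20, 95% interval -0.11 to 0.76, limma adjusted p = 0.285), and it was 0.14 without the Dalmatian. The other ASNS probe sets differed by 0.24 (adjusted p = 0.455) and 0.05 (adjusted p = 0.867) in the same limma fit, and the last of these was -0.06 without the Dalmatian and -0.01 without healthy 1. In the 5 tested probe sets of ASNS, TRIB3 and CHAC1, the Dalmatian was the highest glaucoma sample in 5. This dog was also the lowest sample in ganglion, amacrine and horizontal, bipolar and cone cell markers. The part of cell composition in these levels was not tested.

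PHGDH and PSAT1 catalyse the first and second steps of serine synthesis from a glycolytic intermediate, a pathway that in the retina is associated with Muller glia. The brightest of 5 PHGDH probe sets read 10.92, 9.98, 10.26, 9.47 and 10.26 in glaucoma 1 to 5, and 9.87, 9.50, 9.63, 9.92 and 9.80 in healthy 1 to 5. All glaucoma samples except the older Basset Hound (glaucoma 4) lay above every healthy sample, and that dog lay below every healthy sample. The difference was 0.43 (SE 0.22, 95% interval -0.06 to 0.93, limma adjusted p = 0.207). The other 3 tested PHGDH probe sets differed by 0.40, 0.41 and 0.41 (limma adjusted p of 0.276, 0.154 and 0.0849), and the untested one, above the minimum in 1 sample, by 0.42. The one nearest to the threshold read 8.58, 8.11, 8.09, 7.74 and 8.11 in glaucoma 1 to 5, and 7.51, 7.67, 7.60, 7.91 and 7.87 in healthy 1 to 5, so that only glaucoma 4 overlapped with healthy samples, and without that dog it passed (0.51, adjusted p = 0.039). This probe set passed in 2 of its 25 alternatives, both without glaucoma 4, and its adjusted p over all of them was 0.0383 to 0.449.

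PSAT1 was high in a single dog. Its brightest probe set read 12.15, 11.55, 11.41, 11.41 and 11.60 in glaucoma 1 to 5, and 11.60, 11.62, 11.29, 11.68 and 11.47 in healthy 1 to 5. Apart from the younger Shiba Inu (glaucoma 1), the glaucoma samples lay within the healthy range. The difference was 0.09 (SE 0.15, 95% interval -0.24 to 0.43, limma adjusted p = 0.705), and the other 2 probe sets differed by 0.05 (adjusted p = 0.918) and 0.01 (adjusted p = 0.992). Without glaucoma 1 the 3 differences were -0.04, -0.22 and -0.25, and the dimmer pair also lay just under 0 without healthy 1 or healthy 3 (-0.05 to -0.01). Glaucoma 1 was the highest of all 10 samples in 8 of the 8 PSAT1 and PHGDH probe sets, and healthy 4 was the highest healthy sample in 6 of the 8. These are the 2 samples high in RPE markers. Of the 11 tested RPE markers 1 was higher in glaucoma (SERPINF1), and their summed intensity was 11300 to 66900 in glaucoma and 7120 to 44100 in healthy retinas. The RPE markers TYR and TYRP1 exceeded the minimum in glaucoma 1 and healthy 4 only. Of 9 tested Muller glia markers 3 were higher in glaucoma (APOE, CLU and AQP4, which exceeded the minimum in glaucoma samples only), and their summed intensity was 65500 to 85600 in glaucoma and 57200 to 65800 in healthy retinas. Both counts of higher markers stand beside 8.04% of all 7900 genes. The marker RLBP1 is on both lists. Without RLBP1, the mean log2 level of the other 8 Muller glia markers exceeded the healthy mean by 1.03 in glaucoma 1 and by 0.46 to 0.56 in the other glaucoma samples, against -0.08 to 0.04 in the healthy samples, where healthy 4 did not stand apart. The part of either cell type in the PSAT1 and PHGDH levels was not tested.

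**Figure D2:**
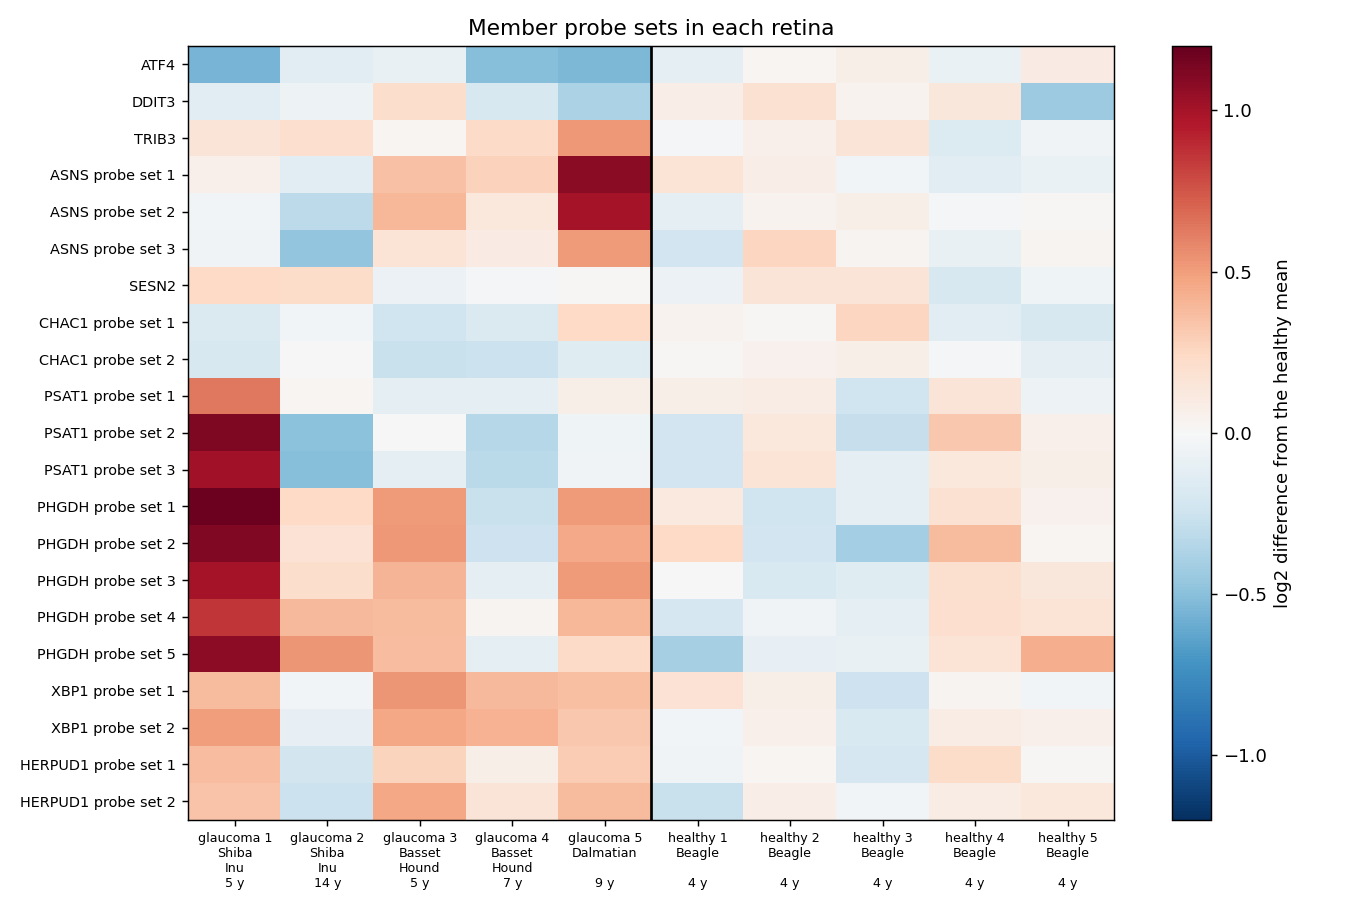
Difference of each sample's log2 level from the healthy mean (colour scale, red higher and blue lower) for the 21 probe sets, with 1 column per dog, labelled with breed and age in years, and the glaucoma samples left of the black line. Glaucoma 1 stands out in all 8 PSAT1 and PHGDH probe sets, glaucoma 5 in the 3 ASNS probe sets, and glaucoma 2 reads lowest of the glaucoma samples in the 4 XBP1 and HERPUD1 probe sets.

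XBP1 is the transcription factor that the ER sensor IRE1 activates by splicing its RNA, and it drives genes of ER folding, degradation and secretion. The annotation used here does not assign either of its 2 probe sets to the spliced or unspliced form. The brighter one read 11.35, 10.95, 11.50, 11.37 and 11.33 in glaucoma 1 to 5, and 11.15, 11.05, 10.73, 11.00 and 10.95 in healthy 1 to 5. All glaucoma samples except the older Shiba Inu (glaucoma 2) lay above every healthy sample, and the difference was 0.33 (SE 0.12, 95% interval 0.05 to 0.60), which missed the threshold (limma, adjusted p = 0.0969). The second XBP1 probe set likewise had glaucoma 2 within the healthy range and the other glaucoma samples above it, at 10.04, 9.44, 10.01, 9.96 and 9.86 in glaucoma 1 to 5, and at 9.51, 9.60, 9.36, 9.63 and 9.60 in healthy 1 to 5. Its difference was 0.32 (SE 0.13, 95% interval 0.04 to 0.60, limma adjusted p = 0.108). Without glaucoma 2 both XBP1 probe sets passed, at 0.41 (adjusted p = 0.0276) and 0.42 (adjusted p = 0.0157). With all 10 dogs the brighter one passed with quantile normalization (0.37, adjusted p = 0.0482), and both passed with age as a covariate (0.53 and 0.58, adjusted p of 0.0308 and 0.0127). Glaucoma 2 is also the oldest dog at 14 years, so leaving it out and adjusting for age are not separate evidence. Of 25 alternatives each, the brighter probe set passed in 4 and the second in 3. Their limma adjusted p ran up to 0.266 and 0.311.

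HERPUD1, an ER membrane protein of ER-associated degradation that the unfolded protein response induces, had its 2 probe sets arranged differently. The brighter one read 11.41, 10.82, 11.30, 11.11 and 11.34 in glaucoma 1 to 5, and 11.00, 11.06, 10.84, 11.26 and 11.04 in healthy 1 to 5. Here healthy 4 lay above glaucoma 2 and 4, the lowest of all 10 samples was glaucoma 2, and the difference was 0.16 (SE 0.13, 95% interval -0.13 to 0.45, limma adjusted p = 0.436). The second HERPUD1 probe set read 9.84, 9.24, 9.95, 9.65 and 9.87 in glaucoma 1 to 5, and 9.23, 9.57, 9.47, 9.58 and 9.63 in healthy 1 to 5, so that all glaucoma samples except glaucoma 2 lay above every healthy sample, as for XBP1. Its difference was 0.22 (SE 0.15, limma adjusted p = 0.335). In 4 of the 4 XBP1 and HERPUD1 probe sets glaucoma 2 was the lowest glaucoma sample.

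**Figure D3:**
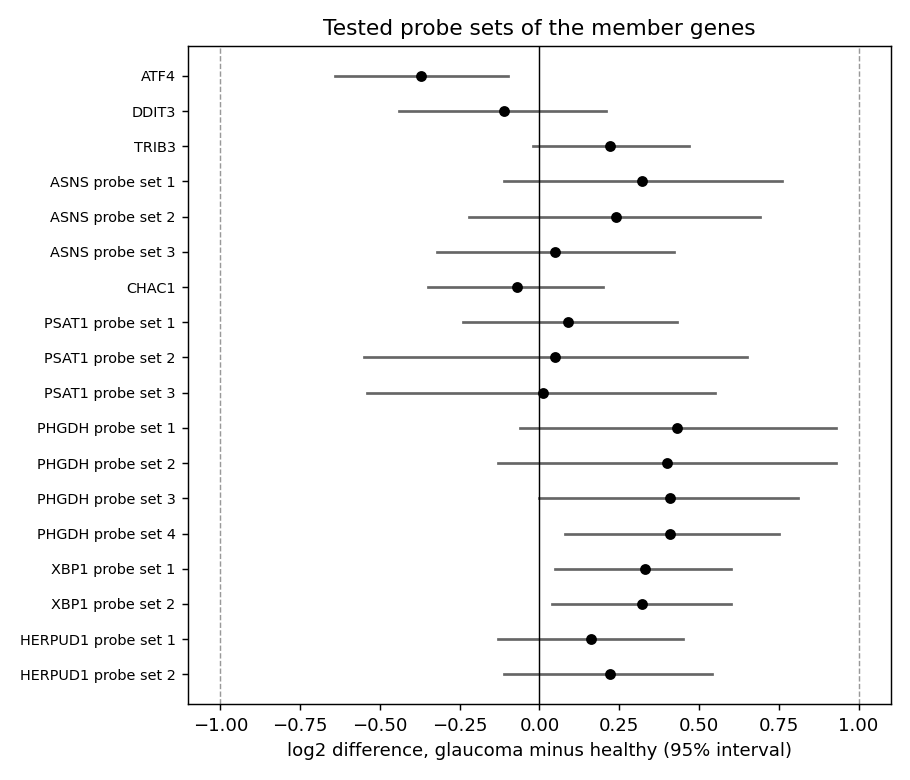
Difference of mean log2 levels, glaucoma minus healthy, with its 95% interval (horizontal line, from limma), for the 18 tested probe sets, numbered from the brightest within each gene, with dashed lines at a 2-fold change. They cover 9 of the 10 genes, as SESN2 had no tested probe set. All intervals lie inside the dashed lines, that of ATF4 lies below 0 (-0.64 to -0.10), and those of 1 PHGDH and both XBP1 probe sets lie above it.

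The glaucoma samples varied more than the healthy ones in these genes, with a median SD over the 18 tested probe sets of 0.30 in glaucoma and 0.16 in healthy retinas, beside 0.28 and 0.19 over all tested probe sets. Among the 21 probe sets, the highest glaucoma sample was glaucoma 1 in 11, glaucoma 5 in 5, glaucoma 3 in 4, glaucoma 2 in 1 and glaucoma 4 in 0. The genes whose deviations from the group means were most like those of a member over the 10 samples, among 7900 genes, differed between members. For ATF4 they were PDZD8, PCNX1 and FAM193B (Pearson's r of 0.95, 0.93 and 0.93), for ASNS LOC480788, RAC2 and BCL2A1 (0.97, 0.95 and 0.94), and for PHGDH PNPLA7, HDHD5 and LAMB2 (0.98, 0.97 and 0.97). For XBP1 they were LYRM7, RDX and RTCA (0.95, 0.91 and 0.91), and for HERPUD1 PABPC4, RIT1 and the ER folding protein ERP44 (0.97, 0.96 and 0.95). These values describe the same 10 arrays and were the highest of many, so no p is given.

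The other genes of the pathway were taken from 6 lists of 119 genes, of which 83 could be tested, each through its brightest tested probe set. Of these 17 were higher in the glaucomatous retina, 3 were lower and 63 did not pass, while 8.04% of all 7900 genes were higher and 8.65% lower. The higher genes lay mostly among ER chaperones and the degradation and translocation machinery. The count of higher genes was 7 to 18 when 1 sample was left out, with 7 to 11 without glaucoma 1, glaucoma 5, or healthy 1, 2, 3 or 5, and that of lower genes was 2 to 5, with 5 without glaucoma 3. The higher genes numbered 3 with the ratio of 3' to 5' signal, a measure of RNA degradation, as a covariate. That log2 ratio was 0.94 ± 0.14 in glaucoma and 1.19 ± 0.22 in healthy retinas (± SD over 5 samples each, p = 0.056 in an exact two-sided permutation test), and its part in the counts was not tested further. A second pair of actin and GAPDH control probe sets was an alternative added after the data were seen. It gave 1.42 ± 0.22 in glaucoma and 1.40 ± 0.19 in healthy retinas (p = 0.87 in the same exact test). With that ratio as a covariate 18 pathway genes were higher and 4 lower. As it hardly differed between the groups, that fit cannot decide the part of RNA degradation in the counts.

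Among ER chaperones and folding enzymes, 7 of 17 tested genes were higher, 0 were lower (limma, also 0 at an unadjusted p under 0.05) and 10 did not pass. Of all 7900 genes 8.04% were higher and 8.65% lower. An unadjusted limma p under 0.05 in either direction was found in 32.6% of all tested probe sets. The median difference of the list was 0.18, compared to -0.01 over all 7900 genes. HSPA5 (BiP), the main ER chaperone of the Hsp70 family, read 12.53, 12.51, 12.76, 12.67 and 12.65 in glaucoma 1 to 5, against 12.25, 12.22, 11.99, 12.22 and 12.12 in healthy 1 to 5. The groups did not overlap, the difference was 0.46 (SE 0.09, limma adjusted p = 0.00793), and the second HSPA5 probe set rose by 0.62 (limma adjusted p = 0.00257). PDIA4, a disulphide isomerase, read 10.77, 10.42, 10.16, 10.23 and 10.85 in glaucoma 1 to 5, and 9.91, 9.38, 9.64, 9.75 and 9.50 in healthy 1 to 5, a difference of 0.85 (SE 0.16, limma adjusted p = 0.00517), and rose in 2 of its 3 probe sets. Its relative PDIA6 rose in 4 of 4 (brightest 0.61, SE 0.13, limma adjusted p = 0.0107). SDF2L1, an ER-resident cofactor of HSPA5, had the largest difference of the list and the widest spread, at 10.28, 8.71, 9.07, 8.98 and 9.99 in glaucoma 1 to 5, and 8.34, 7.93, 7.88, 8.82 and 7.69 in healthy 1 to 5. It differed by 1.27 (SE 0.32, limma adjusted p = 0.0215) and was the only one of the 17 that changed at least 2-fold. Smaller differences were found for ERP44 (0.46), the ER-stress-induced neurotrophic factor MANF (0.38) and P4HB (0.32, outside the rule for naming genes and given to complete the 7), each in 1 of its probe sets. The second probe sets of ERP44 (0.40, adjusted p = 0.0774) and MANF (0.34, adjusted p = 0.0727) and the other 2 of P4HB (0.45 and 0.23) did not pass. PDIA3 (0.42, adjusted p = 0.156) and HSPA13 (-0.22, adjusted p = 0.348) did not pass. HSPA5, PDIA4 and PDIA6 passed with each of the 10 samples left out in turn. The adjusted p of SDF2L1 was up to 0.0573 without glaucoma 5, healthy 2, 3 or 5, that of ERP44 up to 0.0603 without glaucoma 5, healthy 1, 3 or 5, and that of MANF up to 0.0745 without glaucoma 4 or 5, healthy 1, 3 or 5. The count for the list was 3 to 7, with 3 without glaucoma 5, healthy 3 or healthy 5 and 4 without healthy 1, and it was 1 with the first ratio of 3' to 5' signal as a covariate and 7 with the second. Markers of other cells moved with the same groups: 11 of 11 tested microglia and macrophage markers were higher (summed intensity 8400 to 19900 in glaucoma and 2000 to 3030 in healthy retinas), and of 10 tested retinal ganglion cell markers 7 were lower. The 8th called marker of that list, SNCG, had 2 probe sets that moved in opposite directions, the brighter by 2.52 and the other, which exceeded the minimum in healthy samples only, by -2.57, so its direction is uncertain. Lower too were 5 of 5 tested amacrine and horizontal cell, 4 of 4 bipolar cell and 3 of 8 cone markers, while 2 of 6 endothelial cell and pericyte and 1 of 2 oligodendrocyte markers were higher and 0 of 9 rod markers were called by limma (0 at an unadjusted p under 0.05). All these marker counts stand beside 8.04% higher and 8.65% lower among all 7900 genes. Among the called markers CSF1R, CD68, CYBB, PDGFRB and MAL exceeded the minimum in glaucoma samples only and TFAP2A in healthy samples only. These markers entered the test through the group where they were high. The part of these cells in the chaperone levels was not tested. Of the 11 markers of B and plasma cells only JCHAIN could be tested, and it was lower in glaucoma (-0.88). This single marker does not describe these cells as a set. The study listed immunoglobulin heavy chain transcripts as higher in glaucoma, while its labelling for a B cell antigen found no positive cells in the retinas examined. Without glaucoma 1 and healthy 4, the 2 samples high in RPE markers, 6 of the 17 were higher.

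Of 20 tested genes of ER-associated degradation and translocation, 4 were higher and 0 lower (limma, with 7 higher and 0 lower at an unadjusted p under 0.05), 16 did not pass, and the median difference was 0.25, with 18 of the 20 above 0. Of all 7900 genes 8.04% were higher and 8.65% lower, and 49.1% had a difference above 0. An unadjusted limma p under 0.05 in either direction was found in 32.6% of all tested probe sets. SEC61A1, the pore subunit of the translocon, read 11.13, 10.52, 10.58, 10.44 and 11.17 in glaucoma 1 to 5, and 10.13, 9.85, 9.92, 9.93 and 9.85 in healthy 1 to 5. It rose by 0.83 (SE 0.16, limma adjusted p = 0.00565) and passed with each sample left out in turn. SEC61B, another translocon subunit, rose by 0.34 (SE 0.10, adjusted p = 0.032), SSR3 of the translocon-associated complex by 0.32 (SE 0.10, adjusted p = 0.0445), and EDEM2, which trims glycans of misfolded proteins, by 0.48 (SE 0.13, adjusted p = 0.0315) in the limma fit. The other EDEM2 probe sets differed by -0.12 and 0.01 and did not pass. EDEM2 lost its call without glaucoma 1 or 5, healthy 2, 3 or 5 (adjusted p up to 0.0844), and SEC61B and SSR3 lost theirs without glaucoma 1, 4 or 5 or without any healthy sample (up to 0.0781 and 0.111). The second SSR3 probe set rose by 0.50 (limma adjusted p = 0.00908). EDEM3 had a larger difference, 0.97, but did not pass (adjusted p = 0.156). It exceeded the minimum in 3 glaucoma samples only and was lowest of all 10 in the Dalmatian, at 5.16, and without that dog it passed (1.38, adjusted p = 0.0187). SSR1, another subunit of the translocon-associated complex, missed narrowly (0.61, adjusted p = 0.0524) and passed without glaucoma 2 (0.75, adjusted p = 0.0124).

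**Figure D4:**
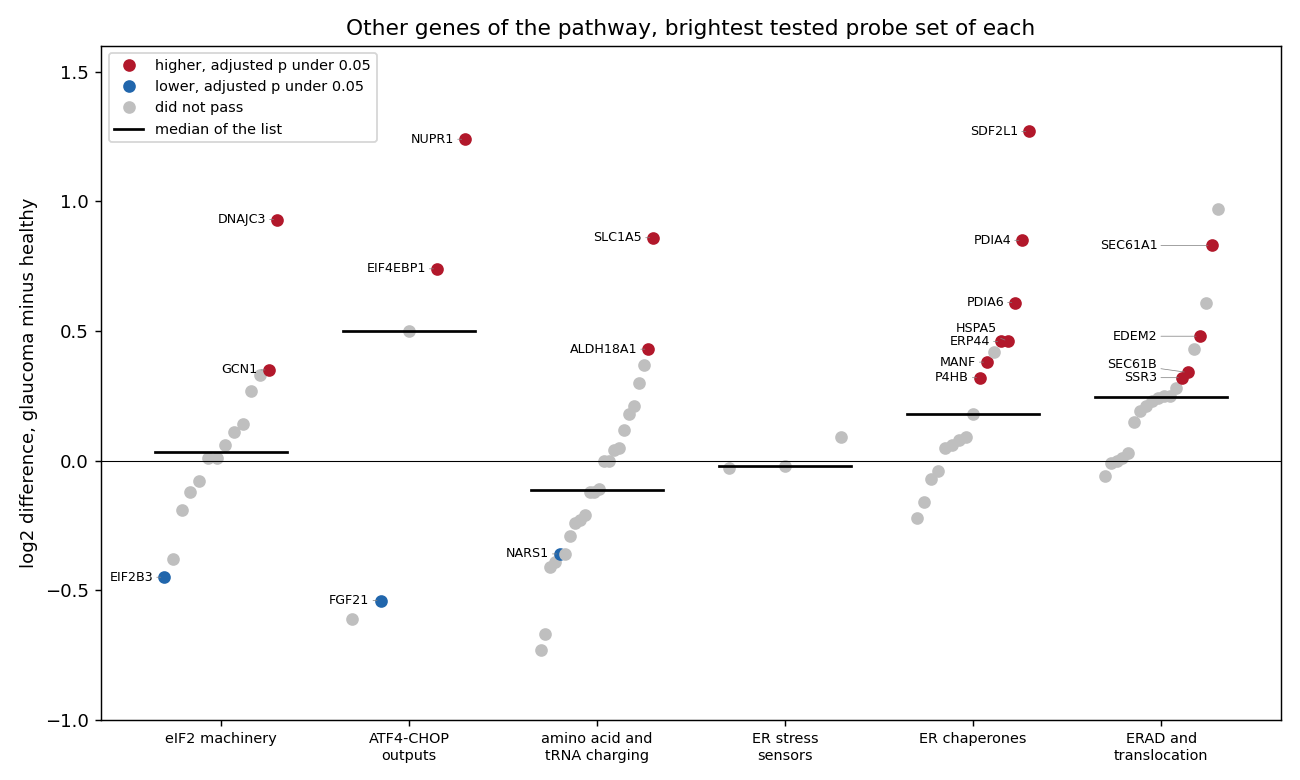
Difference of mean log2 levels, glaucoma minus healthy, of each tested gene of 6 lists (points in rising order within a list, brightest tested probe set), coloured red where higher, blue where lower and grey where the test was not passed, with a black line at the median of each list. The 17 red points include 7 of 17 ER chaperone and 4 of 20 degradation and translocation genes, and the amino acid list has its median below 0 at -0.12.

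The targets and outputs of ATF4 outside the 10 genes did not move as 1 group. Of the 18 genes listed as its network and stress outputs, only 5 could be tested. The others, among them ATF3 and DDIT4, were too dim or had no probe set. Limma called 2 of the 5 higher and 1 lower, beside 8.04% higher and 8.65% lower among all 7900 genes. NUPR1, a small stress-induced chromatin protein, read 11.48, 10.45, 10.86, 10.33 and 10.77 in glaucoma 1 to 5, and 9.95, 9.24, 9.16, 9.62 and 9.72 in healthy 1 to 5. The groups did not overlap, NUPR1 rose by 1.24 (SE 0.23, limma adjusted p = 0.00428) and by 1.21 in its second probe set, and it passed with each sample left out in turn. EIF4EBP1, a repressor of cap-dependent translation, rose by 0.74 (SE 0.19, limma adjusted p = 0.0212), and its adjusted p was up to 0.0559 without glaucoma 5, healthy 2 or healthy 5. The second tested EIF4EBP1 probe set did not pass (0.43, adjusted p = 0.23). The hormone gene FGF21 fell by 0.54 (SE 0.13, limma adjusted p = 0.0165), but it exceeded the minimum in 4 healthy and 0 glaucoma samples and so entered the test through the group where it was high. VLDLR (-0.61, adjusted p = 0.276) and the antioxidant regulator NFE2L2 (0.50, adjusted p = 0.21) did not pass.

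Among 24 tested genes of amino acid synthesis, transport and tRNA charging, 2 were higher and 1 lower, 21 did not pass, and the median difference was -0.12. Over all 7900 genes 8.04% were higher and 8.65% lower, with a median difference of -0.01. ALDH18A1, which starts proline synthesis, read 9.91, 9.90, 9.99, 9.82 and 9.93 in glaucoma 1 to 5, and 9.50, 9.43, 9.34, 9.57 and 9.53 in healthy 1 to 5. It rose by 0.43 (SE 0.09, limma adjusted p = 0.00649), with little spread in either group. The glutamine transporter SLC1A5 rose by 0.86 (SE 0.21, limma adjusted p = 0.0175), with levels of 8.35 to 9.47 in glaucoma and 7.83 to 8.11 in healthy retinas. NARS1, the asparaginyl-tRNA synthetase, fell by 0.36 (SE 0.10, limma adjusted p = 0.0288), and its adjusted p was up to 0.0772 without glaucoma 2 or 5, healthy 1, 2 or 4. The second NARS1 probe set did not pass (-0.32, adjusted p = 0.0756). The transaminase GOT1 (-0.73, adjusted p = 0.0697) and the amino acid transporter SLC38A2 (-0.67, adjusted p = 0.0986) had larger differences and did not pass. GOT1 passed without glaucoma 2 (-0.85, adjusted p = 0.0477) or glaucoma 3 (-0.87, adjusted p = 0.0351), and SLC38A2 without glaucoma 3 (-0.86, adjusted p = 0.021).

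Of 14 tested genes of the eIF2 machinery, 2 were higher, 1 was lower and 11 did not pass, with a median difference of 0.04. These counts stand beside 8.04% higher and 8.65% lower among all 7900 genes. DNAJC3 (p58IPK), an inhibitor of PERK and ER co-chaperone, read 8.12, 6.95, 7.72, 7.08 and 8.24 in glaucoma 1 to 5, and 6.76, 6.76, 6.22, 7.12 and 6.59 in healthy 1 to 5. It rose by 0.93 (SE 0.27, limma adjusted p = 0.0359), with glaucoma 2 and 4 below healthy 4, and its adjusted p was up to 0.0842 without glaucoma 1, 3 or 5, healthy 1, 2, 3 or 5. DNAJC3 exceeded the minimum in 4 glaucoma samples and 1 healthy sample, and only 1 of its 4 probe sets was tested. GCN1, which activates the amino-acid-sensing kinase GCN2, rose by 0.35 (SE 0.11, limma adjusted p = 0.0481) and lost its call without any 1 of the 10 samples (adjusted p up to 0.117), and its second tested probe set did not pass (0.42, adjusted p = 0.0569). EIF2B3, a subunit of the nucleotide exchange factor of eIF2, fell by 0.45 (SE 0.10, limma adjusted p = 0.0126), and it fell in both tested probe sets of its 4. EIF2AK3, the gene of PERK, lay at 7.49 to 7.78 in glaucoma and 7.06 to 7.38 in healthy retinas without overlap, and missed the threshold (0.33, SE 0.10, limma adjusted p = 0.051), which it passed without glaucoma 2 (0.36, adjusted p = 0.0478). PPP1R15A (GADD34), the stress-induced regulator of eIF2alpha dephosphorylation, did not pass (-0.38, adjusted p = 0.205), and its other 3 tested probe sets differed by 0.03 to 0.13. Of the ER stress sensor list 3 of 8 genes could be tested, namely ATF6B, CREB3 and MBTPS1. Limma called 0 of 3 (0 at an unadjusted p under 0.05), with CREB3 at 0.09 and MBTPS1 at -0.03. The sensor genes ERN1 (IRE1) and ATF6 were too dim to be tested, so these values do not cover them.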

How the data were processed

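Neural retina of 5 dogs with glaucoma and 5 healthy dogs was hybridised to 1 Affymetrix Canine genome 2.0 array per dog. The intensity values were deposited on a linear scale after the authors had applied RMA, which corrects for background, brings the arrays to 1 common distribution and summarises probes. The log2 of each intensity was taken. RMA forces equal distributions, so a shift of the whole transcriptome would not be seen. Control probe sets (111) were left out, and of the other 42924 the 18416 with a log2 level above 7 in at least 2 samples, the study's definition of expression, were tested with limma 3.58.1 in R 4.3.3, checked on simulated data. P-values were adjusted with Benjamini-Hochberg over all 18416, and a call was an adjusted p under 0.05. Intervals are from limma's moderated variances and SDs are over dogs.

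A gene with 1 symbol was represented by its brightest tested probe set (7900 genes). Of the 10 member symbols 9 carried the same gene ID in the RefSeq table used, and for CHAC1 the IDs differed. Of 229 genes in the pathway and cell type lists, 206 had a probe set. The members, lists and tests were chosen with earlier results of these data known. Named are all members, up to 6 genes per list and direction with the smallest adjusted p, up to 2 per list with the largest difference that did not pass, and the 3 genes most like a member. Alternatives were other filters, scalings, tests, covariates, probe set choices and samples left out. Arrays have no read depth, and their number limits the precision. Scan dates, real-time PCR and protein data were not analysed here, and promoter and protein sequences were not used here. The labels give the ages printed here, while the study's table of dogs gives others for glaucoma 2 and 5.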

Additional observations from a re-analysis of the deposited data

Results flagged for a closer look

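Groups of 5 samples were screened for 1 sample far from the others, with 2 groups for each probe set of the 10 genes. For the named pathway genes, only the brightest tested probe set of each was screened. The distance was the gap to the nearest sample over the whole range, and chance alone sets about 1 in 20 groups apart in this way. Of the 104 groups, 6 were set apart. Among the members these were DDIT3, where healthy 5 was lowest at a log2 level of 7.71 with the next sample at 8.19, and the brightest probe set of PSAT1, where glaucoma 1 was highest at 12.15 with the next at 11.60. Among the other pathway genes, healthy 3 was lowest in PDIA6 at 10.14, with the next sample at 10.66, and in EIF2B3 at 9.88, with the next at 10.07. EIF2AK3 was lowest in healthy 1 at 7.06, with the next sample at 7.34. EIF4EBP1 was highest in healthy 4 at 7.74, with the next at 7.35, and it was then the only healthy sample above the lowest glaucoma sample, at 7.69.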

How the results depend on the processing

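Of the single probe sets and genes, 1031 of the values under an alternative kept their direction and their side of the threshold, 32 newly passed it, 152 no longer passed it and 31 changed sign. Scaling the arrays differently (median centring or quantile normalization) gave a median difference over all tested probe sets of -0.04 and -0.01, beside -0.02. Of all tested probe sets, 1396 higher and 1732 lower became 408 and 522 with the 3' to 5' ratio, 1746 and 2030 with the ratio from the other controls, 2095 and 2811 with array weights, 544 and 574 with a 2-fold minimum, 943 and 1114 with the replicate block, 1246 and 886 with age, and 866 to 1606 and 1111 to 2127 with 1 sample left out.

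The count of members higher, otherwise 0, was 1 with quantile normalization (XBP1), 2 with age as a covariate and 2 without the Shiba Inus (both XBP1 probe sets), and 1 without the Basset Hounds (PHGDH). The count of members lower, otherwise 0, was 1 with limma's trend and robust options, with array weights and with the 3' to 5' ratio of other control probe sets, an alternative added after the data were seen (ATF4 each time). With 1 sample left out, the counts were 0 to 2 higher and 0 to 1 lower. Of the 83 pathway genes, 17 higher and 3 lower became 0 and 0 with the exact Wilcoxon test, whose smallest adjusted p was 0.0534, 2 and 0 with a 2-fold minimum, and 3 and 0 once the 3' to 5' ratio entered the model. The lower count was 6 with array weights, 1 with age, 1 without the Shiba Inus and 5 without the Basset Hounds, and with 1 sample left out the counts were 7 to 18 higher and 2 to 5 lower. The 7 ER chaperone genes became 0 with Wilcoxon, 1 with a 2-fold minimum, 1 with the 3' to 5' ratio and 3 to 7 with 1 sample left out, with 0 to 0 lower. The causes were not tested.

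The 10 samples share replicate numbers across groups, but the numbers do not pair them, since same-numbered samples deviated with r of -0.24 to 0.07 and 0 of 5 glaucoma samples had its own number as best partner. With the replicate block 0 members, 6 higher and 0 lower pathway genes and 3 higher chaperone genes were called.

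Sign changes, none past the threshold, were these. The 3 PSAT1 differences (0.09, 0.05 and 0.01) were -0.05, -0.25 and -0.28 with array weights, -0.06, -0.13 and -0.16 without the Shiba Inus, and 0.00, -0.14 and -0.21 without the 2 samples high in RPE markers. The dimmer pair read -0.11 and -0.19 after adding the 3' to 5' ratio, and the dimmest was -0.01 with median centring and -0.02 with the other control probe sets. With 1 sample left out they spanned -0.04 to 0.15, -0.22 to 0.18 and -0.25 to 0.13. The dimmest ASNS probe set was -0.05 with array weights, 0.00 without the Basset Hounds, -0.07 with the 3' to 5' ratio and -0.06 to 0.18 with 1 sample left out. CHAC1 was 0.01 and MBTPS1 0.00 without the Basset Hounds, MBTPS1 -0.09 to 0.01 with 1 sample left out, DDIT3 0.12 with the 3' to 5' ratio and HSPA13 0.07 with age. All healthy dogs had 1 age, so the age slope rests on the glaucoma dogs. SESN2 and 1 probe set each of CHAC1 and PHGDH did not pass the minimum, and signal near background limits TRIB3 and CHAC1.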
